A study of Mus musculus with 9 samples.

Results

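The genes described here encode 7 small leucine-rich proteoglycans (Bgn, Dcn, Aspn, Lum, Fmod, Prelp and Ogn) and versican (Vcan), a large proteoglycan of the extracellular matrix. They were taken by gene symbol from the deposited tables, in which each symbol stood on a single line, so that 8 of 43154 listed genes were followed. All 8 passed the filter for testing (at least 1 FPKM in at least 2 hearts), together with 13487 genes in all. For 7 of the 8 the level was at or above 1 FPKM in every heart. Fmod was under 1 FPKM in all 4 wild type hearts and passed through its level in transgenic hearts, so that a difference was built into its selection for testing.

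The study sequenced messenger RNA of 9 hearts, all from C57BL/6 mice. Transgenic mice carried a calcineurin transgene under a myosin heavy chain (MHC) promoter, active in cardiomyocytes and not in the stromal cells known to make most of these proteoglycans. Calcineurin is a calcium-activated phosphatase that drives heart enlargement. The transgenic hearts came from mice given vehicle (3 hearts, numbered 1 to 3) or JIB-04, an inhibitor of Jumonji histone demethylases (2 hearts). JIB-04 was dosed at 50 mg/kg. In every group dosing, with vehicle or JIB-04, began at an age of 4 weeks, with 3 doses a week. All 4 wild type hearts came from vehicle-treated mice, and wild type hearts with JIB-04 were not analysed here. Transgenic vehicle heart 1, JIB-04 heart 1 and wild type hearts 1 and 2 were labelled day 125, and the remaining 5 were labelled day 158, although the series text gives dosing until day 158 for the transgenic mice.

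Small leucine-rich proteoglycans are secreted core proteins built from leucine-rich repeats, most of which carry chondroitin, dermatan or keratan sulfate chains. They sit on collagen fibrils, where they set fibril diameter and spacing, and several of them bind transforming growth factor β (TGF-β). Versican belongs to a different family, the hyalectans, which bind hyaluronan and fill the provisional matrix of developing and injured tissue, the heart valves included. In the adult heart these genes are chiefly known as products of fibroblasts and valve cells.

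The unit of level is FPKM, a fragment count scaled to transcript length and sequencing depth. Differences are on the log2(FPKM + 1) scale from limma, which understates changes of genes at low levels, and called means an adjusted p under 0.05 over all 13487 tested genes. Read totals were not given in the sources used here. From the steps between low values, the deepest library held 1.49 times the depth of wild type heart 1. Mitochondrial genes held up to 30.9% of the summed FPKM of a heart. Across the tested genes, not independent of each other, hearts correlated at 0.916 to 0.988. Ppp3ca, the calcineurin A α gene, was at 1434 to 1762 FPKM in 4 transgenic hearts, at 199 FPKM in transgenic vehicle heart 3 and at 22.9 to 24.8 FPKM in wild type hearts. Nothing in the labels says that the hearts of a group came from separate litters or cages, so p-values measure the spread between these hearts.

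Several of these genes lie next to each other. Dcn (positions 97479500 to 97518162) and Lum (97565501 to 97572703) are neighbours on chromosome 10, 47.3 kb apart with no protein-coding gene between them. Aspn (49544443 to 49567557) and Ogn (49608071 to 49624500) lie 40.5 kb apart on chromosome 13, with Omd, the osteomodulin gene, between them. Prelp (133910304 to 133921414) and Fmod (134037254 to 134048277) are 115.8 kb apart on chromosome 1. Vcan is on chromosome 13 (89655312 to 89742509) and Bgn on chromosome X (73483602 to 73495933). All positions are in GRCm38 and counted from 1. Strand was not kept by the kit used for the libraries, and exons of Aspn overlap those of Cenpp on the opposite strand, which was at 1.98 ± 0.247 FPKM (SD, n = 4) in wild type and 1.71 ± 0.378 (SD, n = 3) in transgenic vehicle hearts. Exons of Prelp overlap the antisense gene Gm15851, which was at 0.186 FPKM or less in every heart.

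The stretches of 250 bases before the RefSeq start sites of the neighbours Aspn and Ogn are shown because these genes had the largest and the smallest called difference of the 8 between transgenic vehicle and wild type hearts. Both lie on the plus strand of chromosome 13 of GRCm38.p6, at chr13:49544193-49544442 for Aspn and chr13:49607765-49608014 for Ogn. Capitals mark GGAAA or its reverse complement TTTCC, the core recognised by NFAT, the transcription factor family that calcineurin activates.
Aspn: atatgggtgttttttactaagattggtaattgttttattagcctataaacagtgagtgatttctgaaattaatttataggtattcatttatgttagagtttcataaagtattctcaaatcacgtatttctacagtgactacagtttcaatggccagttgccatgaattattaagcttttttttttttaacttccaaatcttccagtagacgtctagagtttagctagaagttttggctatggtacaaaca
Ogn: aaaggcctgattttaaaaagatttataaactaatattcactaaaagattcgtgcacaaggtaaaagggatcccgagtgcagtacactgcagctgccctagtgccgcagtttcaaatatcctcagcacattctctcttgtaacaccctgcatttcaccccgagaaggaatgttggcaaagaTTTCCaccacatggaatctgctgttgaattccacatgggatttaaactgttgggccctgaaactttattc
The Ogn window holds the core once and the Aspn window does not hold it. Across both strands it was present in 55.6% of 32851 promoter windows of this length, and in 3 of the 6 windows matched to these genes (Ogn, Prelp and Vcan, but not Aspn, Bgn or Fmod). A match of letters is a description and not a binding site.

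In wild type hearts the order of levels in FPKM was Dcn, Bgn, Ogn, Lum, Prelp, Aspn, Vcan and Fmod. Ogn and Lum overlapped in range, as did Prelp and Aspn, while the other neighbours in this order did not overlap. The first comparison asked what the calcineurin transgene changed under vehicle. Against wild type, 7 of the 8 genes rose in transgenic vehicle hearts and 0 fell, where 20.3% of all tested genes were called higher, 15.7% lower and 36.0% in either direction. The median log2 difference of the 8 was 1.0, beside 0.05 over all tested genes. In 6 of the 8 no transgenic vehicle heart overlapped with wild type, which held in the upward direction for 23.4% of all tested genes. Fmod, tested only through its level in transgenic hearts, is counted in both the 7 and the 6. Lum was the 1 gene not called, and Ogn, the weakest of the 7, kept its call in 1 of 9 fits that left out a heart.

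**Figure D1:**
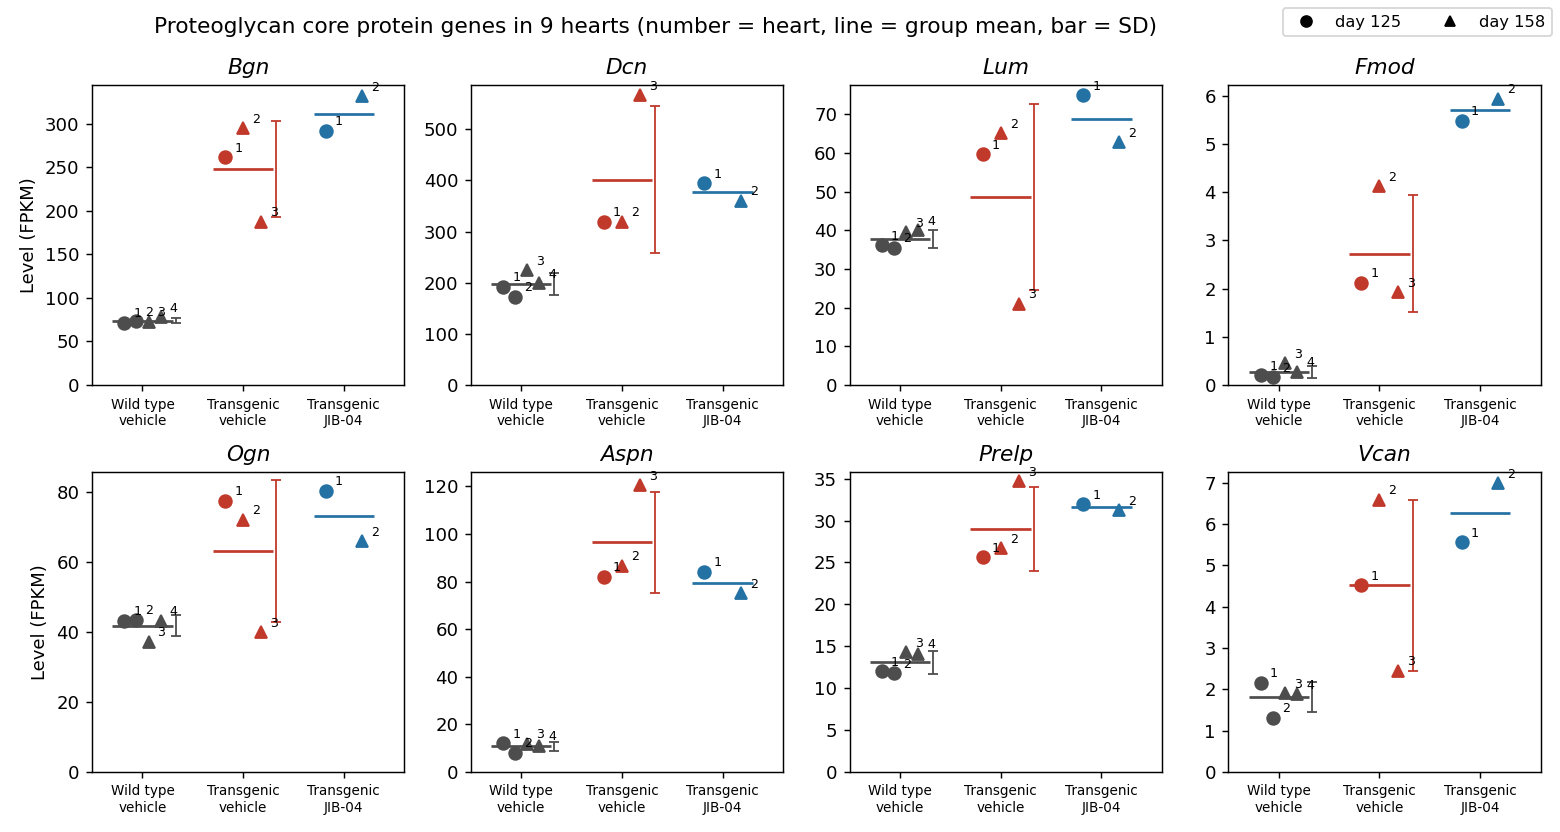
Level in FPKM (vertical axes, from 0, 1 panel per gene) of the 8 genes in wild type vehicle, transgenic vehicle and transgenic JIB-04 hearts, with the heart number beside each point, circles for day 125, triangles for day 158, horizontal lines for group means and bars for the SD of groups with more than 2 hearts. Aspn lies at 75.0 to 121 FPKM in transgenic hearts and at 8.08 to 12.01 in wild type hearts, and Lum of transgenic vehicle heart 3 lies below all other hearts at 21.1 FPKM.

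Aspn, Bgn and Dcn form the class I of the family. Asporin carries a run of aspartate residues in place of a sulfated chain and competes with decorin for collagen. Its gene Aspn was at 82.0, 86.7 and 121 FPKM in transgenic vehicle hearts 1 to 3, at 84.1 and 75.0 in the JIB-04 hearts, and at 12.01, 8.08, 11.9 and 10.99 in wild type hearts 1 to 4. Every transgenic heart lay far above every wild type heart, with transgenic vehicle heart 3 the highest. Mean FPKM was 10.7 ± 1.82 in wild type (SD, n = 4) and 96.4 ± 21.1 in transgenic vehicle hearts (SD, n = 3), a log2 difference of 3.02 ± 0.16 (SE; limma adjusted p = 1.3e-05). By size this was the 41st difference among the 13487 tested genes.

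Biglycan, the product of Bgn, carries chondroitin or dermatan sulfate chains, binds collagen and TGF-β and, when released from the matrix, signals through Toll-like receptors. Bgn was at 261, 295 and 188 FPKM in transgenic vehicle hearts, at 292 and 332 in JIB-04 hearts, and at 71.6, 73.2, 72.8 and 77.7 in wild type hearts. The groups did not overlap, the wild type hearts lay close together, and heart 3 was the lowest of the transgenic hearts. Bgn rose 3.36-fold in mean FPKM, with a log2 difference of 1.71 ± 0.15 (SE; limma adjusted p = 0.00012).

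Decorin, which binds collagen fibrils and limits their growth and also binds TGF-β, was the most abundant of these transcripts in every heart. Dcn was at 319 FPKM in both transgenic vehicle hearts 1 and 2 and at 567 in heart 3, at 395 and 361 in JIB-04 hearts, and at 192, 173, 224 and 199 in wild type hearts. No transgenic heart overlapped with wild type, and here heart 3 was the highest. Dcn rose, with means of 197 ± 21.3 FPKM in wild type (SD, n = 4) and 402 ± 143 in transgenic vehicle hearts (SD, n = 3) and a log2 difference of 0.94 ± 0.19 (SE; limma adjusted p = 0.0065). In the day 158 hearts alone it was not called (log2 difference 1.01, adjusted p = 0.094).

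Fmod, Lum and Prelp belong to class II. Fibromodulin binds type I collagen, steers fibril assembly and is abundant in tendon and cartilage. Fmod was at 2.12, 4.12 and 1.92 FPKM in transgenic vehicle hearts, at 5.48 and 5.93 in JIB-04 hearts, and at 0.205, 0.157, 0.447 and 0.277 in wild type hearts. All transgenic hearts lay above all wild type hearts, and both JIB-04 hearts lay above all 3 transgenic vehicle hearts. The ratio of mean FPKM between transgenic vehicle and wild type was 10.02, and the log2 difference was 1.47 ± 0.18 (SE; limma adjusted p = 0.00068). With a pseudocount of 0.1 in place of 1 the difference was 2.82.

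Lumican carries keratan sulfate chains and regulates fibril assembly, and is known from the cornea, where it is needed for transparency. Lum was at 59.6 and 65.1 FPKM in transgenic vehicle hearts 1 and 2 and at 21.1 in heart 3, at 74.9 and 62.7 in JIB-04 hearts, and at 36.1, 35.5, 39.4 and 39.9 in wild type hearts. Thus 4 transgenic hearts lay above all wild type hearts and 1, transgenic vehicle heart 3, lay below all of them. The log2 difference between transgenic vehicle and wild type was 0.24, with a 95% interval from -0.55 to 1.02 (limma adjusted p = 0.62). Without transgenic vehicle heart 3 it was 0.71 (adjusted p = 0.0012), and without heart 1 or heart 2 it was -0.03 or -0.08 (adjusted p = 0.97 and 0.86).

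Prelp encodes a proline- and arginine-rich protein that binds heparan sulfate and connects collagen with basement membranes. Prelp was at 25.6, 26.7 and 34.7 FPKM in transgenic vehicle hearts, at 32.0 and 31.2 in JIB-04 hearts, and at 12.01, 11.8, 14.3 and 14.1 in wild type hearts. The groups did not overlap, and heart 3 was again the highest. Its log2 difference, 1.06 ± 0.10 (SE; limma adjusted p = 0.00021), had the smallest error of the 8 genes.

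Ogn, of class III, encodes osteoglycin (mimecan), which is found in bone, vessel wall and heart. Ogn was at 77.4, 72.0 and 39.9 FPKM in transgenic vehicle hearts, at 80.2 and 65.8 in JIB-04 hearts, and at 43.1, 43.4, 37.2 and 43.2 in wild type hearts. Transgenic vehicle heart 3 lay among the wild type hearts, and the 4 other transgenic hearts lay above them. Ogn rose by a log2 difference of 0.58 ± 0.19 (SE; limma adjusted p = 0.045). The call was lost in 7 of 14 other alternatives (adjusted p up to 0.40, in the day 158 hearts alone, where the difference was 0.41) and in 8 of 9 fits without 1 heart (up to 0.21, without transgenic vehicle heart 1). Without transgenic vehicle heart 3 the difference was 0.83 (adjusted p = 0.00030).

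Versican is the one member without leucine-rich repeats, a chondroitin sulfate proteoglycan that binds hyaluronan through its N-terminal domain. Vcan was at 4.52, 6.59 and 2.45 FPKM in transgenic vehicle hearts, at 5.56 and 6.99 in JIB-04 hearts, and at 2.16, 1.31, 1.90 and 1.88 in wild type hearts. No transgenic heart overlapped with wild type, although heart 3 lay close to the highest wild type heart. The log2 difference was 0.89 ± 0.25 (SE; limma adjusted p = 0.026). It was not called without transgenic vehicle heart 1 (0.79, adjusted p = 0.13) or heart 2 (0.64, adjusted p = 0.058), without wild type heart 2, 3 or 4 (adjusted p = 0.059, 0.063 and 0.065), with no filter on low genes (0.084) or in the day 158 hearts alone (0.82, adjusted p = 0.23). Without transgenic vehicle heart 3 the difference was 1.21 (adjusted p = 0.00068).

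**Figure D2:**
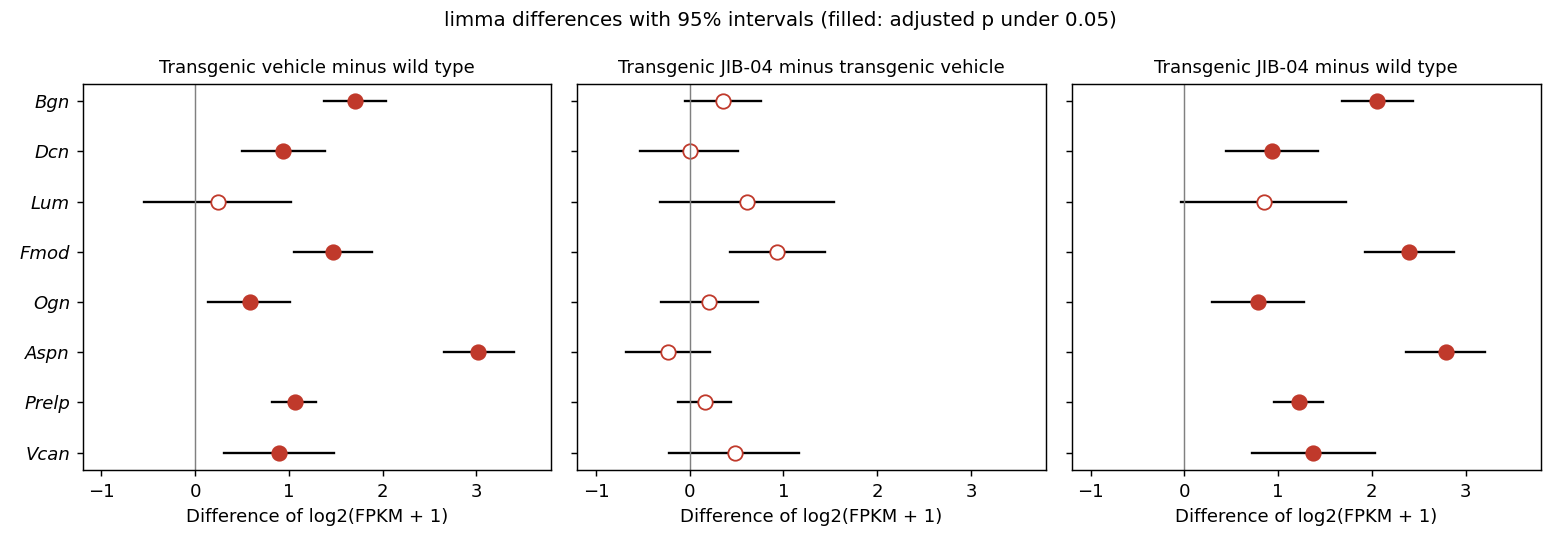
Differences on the log2(FPKM + 1) scale (horizontal axes) with 95% intervals for each gene (rows) in 3 comparisons, where filled points had an adjusted p under 0.05 in limma. In the comparisons with wild type 7 of 8 points are filled, Lum being open in both, and in the comparison of JIB-04 with transgenic vehicle 0 are filled, with the interval of Fmod from 0.43 to 1.44.

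Transgenic vehicle heart 3 was either the highest or the lowest of the 5 transgenic hearts for every one of the 8 genes. It was the highest for Dcn, Aspn and Prelp and the lowest for Bgn, Lum, Fmod, Ogn and Vcan. Over all tested genes this heart was the highest in 28.6% and the lowest in 31.4%, so that it held an end position in 60.0%. Relative to the mean of the other 4 transgenic hearts, its log2 level differed by 0.71 for Dcn, 0.55 for Aspn and 0.26 for Prelp, and by -1.59 for Lum, -0.99 for Vcan, -0.87 for Ogn, -0.82 for Fmod and -0.64 for Bgn. Within each nearby pair of these genes the positions in this heart were opposite. On chromosome 10 Dcn was up and Lum down, and on chromosome 13 Aspn was up and Ogn down. On chromosome 1 Prelp was up and Fmod down. Omd, which lies between Aspn and Ogn, was up like Aspn, at 4.22 FPKM. How often other neighbouring genes took opposite positions was not tested. Of 7 tested fibrillar collagen genes 4 were lowest among the transgenic hearts and below or within the wild type range in this heart (Col1a1, Col1a2, Col3a1 and Col5a1). Col5a2, at 6.15 FPKM, was lowest among transgenic hearts but above all wild type hearts, Col5a3, at 2.21, lay among the other transgenic hearts, and Col11a2, at 1.69, was the highest of all hearts. Col3a1 was at 14.1 FPKM, against 90.1 to 120 in the other transgenic and 33 to 45.7 in wild type hearts, and Col1a1 was at 9.67, against 38.0 to 48.4 and 10.9 to 15.8. The part of this heart's lower Ppp3ca level in these values was not tested. Without it all 8 genes were called higher against wild type, where 21.0% of 13397 tested genes were called higher and 37.4% in either direction. Fmod, counted here too, was tested only through its level in transgenic hearts.

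**Figure D3:**
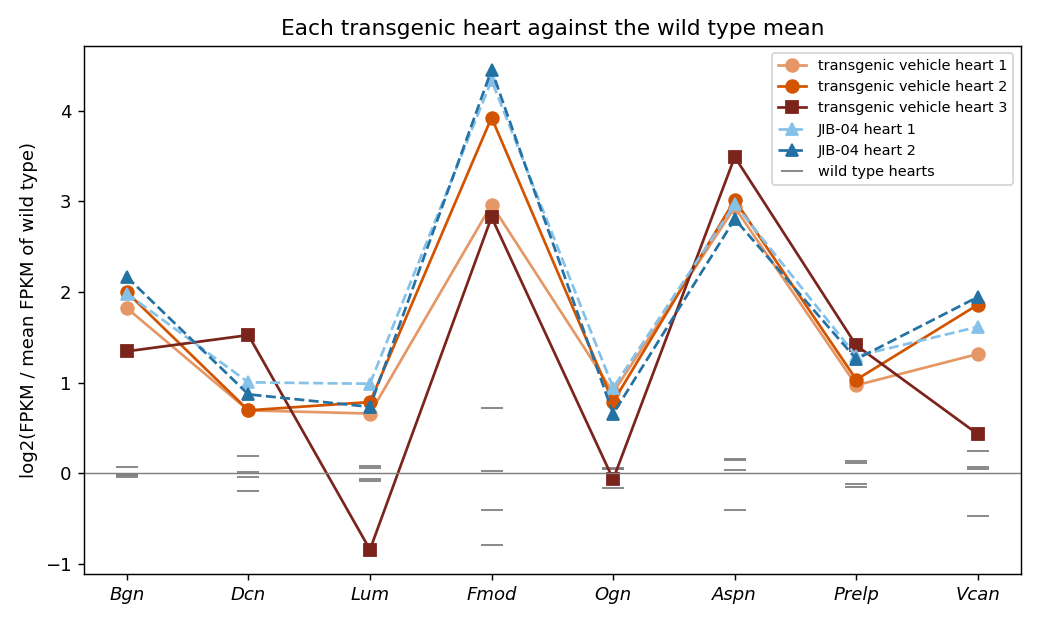
Log2 ratio of FPKM in each transgenic heart to the mean of the 4 wild type hearts (vertical axis) for the 8 genes (horizontal axis), with lines joining the values of a heart and grey dashes for the wild type hearts. Transgenic vehicle heart 3 (dark squares) lies above the other transgenic hearts for Dcn, Aspn and Prelp and below them for the other 5 genes, with Lum and Ogn below 0.

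The make-up of these transcripts, which does not depend on the scaling between hearts, also differed. The 8 genes summed to 346 to 402 FPKM in wild type and 832 to 975 in transgenic hearts. Dcn made up 49.9% to 55.8% of the sum in wild type hearts, 36.4% to 40.8% in 4 transgenic hearts and 58.1% in transgenic vehicle heart 3. Bgn made up 18.1% to 21.2% in wild type and 30.1% to 35.3% in the same 4 transgenic hearts. In heart 3 its share was 19.2%, within the wild type range. The share of Aspn was 2.34% to 3.25% in wild type and 7.98% to 12.4% in all 5 transgenic hearts, without overlap. The FPKM ratio of Bgn to Dcn was accordingly 0.325 to 0.424 in wild type hearts, 0.739 to 0.925 in 4 transgenic hearts and 0.331 in transgenic vehicle heart 3. Aspn and Ogn changed order, with ratios of 0.186 to 0.319 in wild type and 1.05 to 3.02 in transgenic hearts, the highest again in heart 3. These ratios are descriptions and were not tested.

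**Figure D4:**
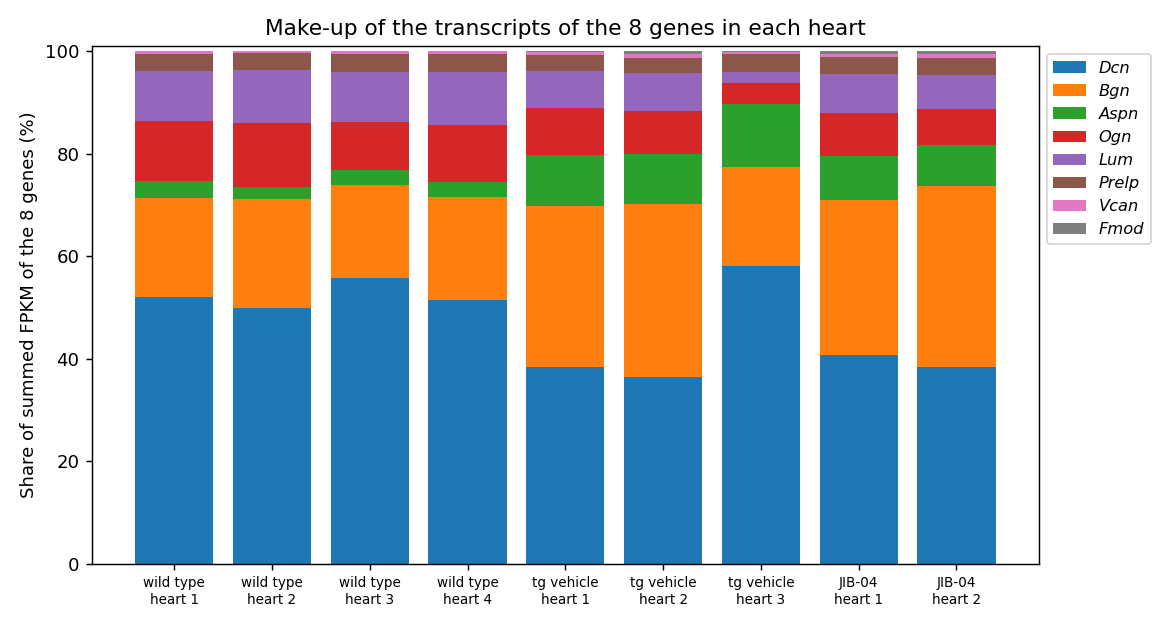
Share of each gene (colours) in the summed FPKM of the 8 genes, in percent (vertical axis), for each of the 9 hearts (horizontal axis). The Aspn share is larger in all transgenic hearts (7.98% to 12.4%) than in wild type hearts (2.34% to 3.25%), and the Dcn share of transgenic vehicle heart 3 (58.1%) stands above those of the other transgenic hearts (36.4% to 40.8%).

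The second comparison, named by the series title, asked what JIB-04 changed in transgenic hearts. None of the 8 genes passed in limma (0 called, 1 at an unadjusted p under 0.05), where 0.00741% of all tested genes, a single gene, were called and 3.29% had an unadjusted p under 0.05. The median log2 difference of the 8 was 0.28, beside -0.01 over all tested genes. Fmod was the gene with an unadjusted p under 0.05 (0.0027), with a mean of 5.70 ± 0.322 FPKM in JIB-04 hearts (SD, n = 2) and of 2.72 ± 1.22 in transgenic vehicle hearts (SD, n = 3). Its log2 difference was 0.93 ± 0.22 (SE), with a 95% interval from 0.43 to 1.44 (limma adjusted p = 0.99). The groups did not overlap, as held in this direction for 5.55% of all tested genes. For Dcn the log2 difference was 0.00 (interval -0.53 to 0.52), for Prelp 0.16 (-0.12 to 0.44), for Ogn 0.21 (-0.31 to 0.73) and for Aspn -0.23 (-0.68 to 0.22). Bgn differed by 0.35 (-0.05 to 0.76), Vcan by 0.48 (-0.22 to 1.17) and Lum by 0.61 (-0.32 to 1.54), each with an adjusted p of 0.99. Without transgenic vehicle heart 3 the differences of Lum, Vcan and Bgn were 0.14, 0.16 and 0.16, and that of Fmod was 0.75, with 0 of the 8 called where 0.0149% of tested genes were. With 2 and 3 hearts these intervals leave room for differences of the size printed at their ends.

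JIB-04 hearts were also set against wild type vehicle hearts, which serve as controls in both comparisons with wild type. Here 7 of 8 genes were higher and 0 lower, where 17.4% of all tested genes were called higher, 14.8% lower and 32.3% in either direction. All 8 were without overlap, which held in the upward direction for 28.4% of all tested genes. Fmod, tested only through its level in transgenic hearts, is in both counts. Aspn was higher by 2.79 ± 0.18 (SE; limma adjusted p = 4.1e-05), Fmod by 2.40 ± 0.21 (0.00014; 4.02 with a pseudocount of 0.1) and Bgn by 2.06 ± 0.16 (0.00010). Vcan was higher by 1.37, Prelp by 1.22, Dcn by 0.94 and Ogn by 0.79 on the log2 scale. For Lum the difference was 0.85, with an interval from -0.03 to 1.72 (adjusted p = 0.13), and 0.85 with an adjusted p of 0.00047 when transgenic vehicle heart 3, which adds to the shared estimate of spread, was left out. All 8 genes were called higher in that fit, where 21.4% of tested genes were called higher and 39.7% in either direction. In a fit of the compared groups alone Lum was also called (adjusted p = 0.0012). With a single JIB-04 heart, Dcn lost its call without JIB-04 heart 1 (0.73, adjusted p = 0.14), Vcan without JIB-04 heart 2 (1.24, adjusted p = 0.095) and Ogn without either (0.79 in each fit, adjusted p = 0.13 and 0.14), the lone heart being assumed to vary like the others. Ogn also lost its call without wild type heart 1, 2 or 3 (0.75 to 0.78, adjusted p = 0.057, 0.055 and 0.054) and with no filter on low genes (0.074). In the day 158 hearts alone, with a single JIB-04 heart, fewer of the 8 genes were called than in the main fit.

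The days were compared over all groups. None of the 8 genes was called between day 158 and day 125 (limma, 0 called, 0 at an unadjusted p under 0.05), where 0.378% of all tested genes were called and 18.8% had an unadjusted p under 0.05. The log2 differences of day 158 minus day 125 ran from -0.28 for Ogn (interval -0.66 to 0.11) to 0.21 for Fmod (-0.16 to 0.59). Day 125 has 1 transgenic vehicle heart, and day 158 has 2, one of which is heart 3. The effect of the transgene at day 125 and at day 158 was 2.93 and 3.06 for Aspn, 1.84 and 1.63 for Bgn, 0.81 and 1.01 for Dcn, and 1.05 at each day for Prelp. It was 1.40 and 1.51 for Fmod, 1.03 and 0.82 for Vcan, 0.83 and 0.41 for Ogn, and 0.72 and -0.09 for Lum. The difference between the days was called in limma for 0 of the 8 genes (0 at an unadjusted p under 0.05), where 0.00741% of all tested genes were, and its interval for Lum was -2.66 to 1.03.

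Genes that act with these proteoglycans were taken from lists chosen by function, with earlier results of these data known, 68 tested genes in all. Their shares of calls are descriptions. Between transgenic vehicle and wild type hearts 35 of the 68 were called, 26 of them higher (51.5% called, beside 36.0% of all tested genes), and the median log2 difference was 0.35. With transgenic vehicle heart 3 left out, 32 of 67 were higher and 9 lower, where 21.0% of all tested genes were called higher and 37.4% in either direction. Omd, Chst3 and Adamts8 were under 1 FPKM in every wild type heart and, like Fmod, were tested only through their level in transgenic hearts, so that a difference was built into their calls. Between JIB-04 and transgenic vehicle hearts 0 of the 68 were called (limma, 5 at an unadjusted p under 0.05, where 3.29% of all tested genes were). Between the days 0 were called (limma, 9 at an unadjusted p under 0.05, where 18.8% of all tested genes were).

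Ligands and receptors that these core proteins bind were higher in 8 of 11 tested genes and lower in 1. Of all tested genes 20.3% were called higher and 15.7% lower. Tgfb3 and Tgfb2, which encode TGF-β ligands, rose by 3.82 and 3.44 on the log2 scale. In wild type hearts the mean of Tgfb3 was 5.32 ± 0.357 FPKM and that of Tgfb2 was 2.54 ± 0.440 (SD, n = 4). With the transgene and vehicle the means were 89.5 ± 24.5 and 39.4 ± 13.5 FPKM (SD, n = 3). Tlr4, a Toll-like receptor to which biglycan binds, rose by 1.96, and Lrp1, an endocytic receptor, by 1.0. Kdr, the vascular endothelial growth factor receptor, was the gene that fell (-0.82). It is also counted among the endothelial markers described below. Without transgenic vehicle heart 3, 7 of the 11 were called higher and 1 lower, where 37.4% of tested genes were called in either direction. Of 7 tested fibrillar collagen genes Col5a2 rose (0.93 ± 0.20 (SE)) and 0 fell. Col1a1 differed by 0.91 (interval -0.18 to 2.01), Col1a2 by 0.89 (0.19 to 1.58) and Col3a1 by 0.61 (-0.89 to 2.12), none called, with the low values of transgenic vehicle heart 3 described above. Without that heart 5 of the 7 were called higher, where 21.0% of tested genes were, with Col1a1 at 1.59, Col1a2 at 1.31 and Col3a1 at 1.55.

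Of 5 other family members tested, 1 rose and 1 fell, a share of calls near that of all tested genes (36.0%). Omd, between Aspn and Ogn on chromosome 13, rose from a wild type mean of 0.545 ± 0.307 FPKM (SD, n = 4) to 2.50 ± 1.54 in transgenic vehicle hearts (SD, n = 3), a log2 difference of 1.10 ± 0.29 (SE; limma adjusted p = 0.019). Like Aspn and unlike Ogn, it was highest in transgenic vehicle heart 3, at 4.22 FPKM. Podn, podocan, fell by 0.30 on the log2 scale (limma adjusted p = 0.043), and was not called without transgenic vehicle heart 3 (-0.24, adjusted p = 0.093). Kera, the keratocan gene next to Lum, was listed at 0 in every heart.

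Among genes of hyaluronan and its binding proteins, 2 of 3 tested rose and 0 fell, where 20.3% of all tested genes were called higher. Cd44, the hyaluronan receptor, rose by 1.68 on the log2 scale, with a mean of 1.99 ± 0.351 FPKM in wild type (SD, n = 4) and 8.75 ± 0.483 in transgenic vehicle hearts (SD, n = 3), and Hyal2, a hyaluronidase, rose by 0.60. Of 16 tested genes of cell surface and basement membrane proteoglycans 3 rose and 4 fell, 43.8% called beside 36.0% of all tested genes. Cspg4, a chondroitin sulfate proteoglycan of pericytes, rose by 1.15 and Agrn, agrin, by 0.73, while the glypican genes Gpc4 and Gpc1 fell by 1.02 and 0.88.

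Enzymes that build chondroitin and dermatan sulfate chains were higher in 8 of 18 tested genes and lower in 2, with a median of 0.28. The share called was 55.6%, beside 36.0% of all tested genes. Chst3, which sulfates chondroitin, rose by 0.81, with a mean of 0.346 ± 0.0547 FPKM in wild type (SD, n = 4) and 1.38 ± 0.157 in transgenic vehicle hearts (SD, n = 3), and the chain-extending Chpf2 and Chpf rose by 0.73 and 0.69. Chst12, another sulfotransferase, rose by 0.63. Among 8 tested proteases that process proteoglycans, with their enhancers, 3 rose and 1 fell, 50% called beside 36.0% of all tested genes. Adamts8 rose by 1.03 and Adamts15, which cleaves versican, by 0.76. Pcolce2, an enhancer of procollagen cleavage, rose by 0.68, and Adamts9, another versican-cleaving enzyme, fell by 0.42.

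Of 12 tested fibroblast markers 7 were higher and 0 lower between transgenic vehicle and wild type hearts, where 20.3% of all tested genes were higher, and none was at 0 throughout. The 5 markers not called differed by -0.45 (Ddr2), -0.30 (Col15a1), -0.25 (Abca8a), -0.06 (Cd34) and 0.12 (Dpt). The summed level of all 12 markers was 668 to 781 FPKM in wild type and 1028 to 1092 in transgenic vehicle hearts. In JIB-04 hearts it was 1024 to 1135 FPKM. Gsn, gelsolin, held most of the sum. Without Gsn the sum of the other 11 was 317 to 361, 335 to 496 and 452 to 498 FPKM in the same order. The groups of vehicle hearts overlapped through transgenic vehicle heart 3, at 335 FPKM, while transgenic vehicle hearts 1 and 2 lay above all wild type hearts. Tcf21 and Pdgfra, fibroblast identity genes, rose by 1.02 and 0.30 on the log2 scale, and Mfap5, of microfibrils, rose by 2.09. Pdgfra was not called without transgenic vehicle heart 3 (0.29, limma adjusted p = 0.056), and Col15a1 then was (0.65, adjusted p = 0.021). Of 6 genes on the list of activated fibroblasts 5 were tested, and all 5 rose. Among them were Postn, periostin (1.81), and Comp (4.39). Comp was under 1 FPKM in every wild type heart and was tested only through its level in transgenic hearts. The part of these markers in the results was not tested. In whole hearts more cells of a type and more RNA per cell cannot be told apart.

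The genes whose log2 level over the 9 hearts was most like that of each proteoglycan gene were listed by Pearson correlation, as a description over hearts that share the difference between transgenic and wild type and include transgenic vehicle heart 3. They were Igfbp7 (0.999), Tgfb2 (0.997) and Cnnm2 (0.997) for Bgn, Gsn (0.991) and Wdr43 (0.983) for Dcn, and Ambra1 (0.996), Ahnak2 (0.996) and Gm12295 (0.995) for Aspn. For Lum they were Polr3b (0.968), Col3a1 (0.967) and Cenpa (0.965), for Fmod Cytl1 (0.990), Col8a2 (0.989) and St6galnac4 (0.984), and for Prelp Fbln5 (0.992), Gm16907 (0.992) and Timp2 (0.991). Zfp286 (0.990), Lrp2bp (0.988) and Gpm6b (0.984) were closest to Ogn, and Zswim6 (0.993), Fstl1 (0.987) and Col4a4 (0.981) to Vcan. Among the 8 genes themselves, Aspn and Prelp were most alike (r = 0.98) and the neighbours Dcn and Lum least (r = 0.06), over the same 9 hearts.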

How the data were processed

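Each heart has a table of log2 FPKM per gene, as deposited by the authors and named so per the file headers. What was added to FPKM before taking logs is not stated, and 1 was used, since the minimum of every table was 0. Per the submitters' processing notes, the tools were Cufflinks 2.2.1, STAR 2.7.1a, GATK 4.1.2 and Picard, and the build was GRCm38, with no step assigned to a tool. No annotation release was named in the sources used here. GENCODE release M21 gave exon overlaps, and file starts plus 1 equalled its starts in 82.9% of 39331 matched genes. Promoter sequences are from RefSeq (GRCm38.p6), with 6 of the 8 genes matched.

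Where 2 or more hearts reached 1 FPKM, a gene's log2(FPKM + 1) values were fitted by limma 3.58.1 under R 4.3.3 (eBayes with an intensity trend), with group means and a term for day over all 9 hearts (5 residual degrees of freedom, 3.07 added by the prior). P-values are two-sided with Benjamini-Hochberg adjustment over all tested genes. The effect by day used a separate mean for each of the 6 pairs of group and day (3 residual degrees of freedom). The fit was tested on simulated data. Groups, days and replicate numbers come from the labels. The genes, the 7 lists of related genes and the 8 lists of cell markers were chosen with earlier results of these data known. Named from each list were up to 4 genes called between transgenic vehicle and wild type hearts, by size of difference, and, chosen after their values were seen, Col1a1, Col1a2, Col3a1, Col5a1, Col5a3, Col11a2, Kera, Pdgfra, Cnn1 and the fibroblast markers not called. For each of the 8 genes the 3 tested genes of highest correlation were named, except 1 that is not reported here. Alternatives covered pseudocounts of 0.1 and 0.5, a filter of 5 FPKM or none, 4 scalings between hearts, other variance models, no term for day, replicate numbers as a block, fewer hearts in the fit, and leaving out each heart.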

Additional observations from a re-analysis of the deposited data

Results flagged for a closer look

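In the wild type group, Ogn of heart 3 (37.2 FPKM) lay apart from hearts 1, 2 and 4 (43.1 to 43.4 FPKM). Its gap to the nearest heart was 0.963 of the range of the group on the log2(FPKM + 1) scale, above the 95% critical value of 0.829 for 4 samples. The other 7 genes had no such heart in this group, and chance flags about 1 in 20 groups. Without wild type heart 3 the log2 difference of Ogn between transgenic vehicle and wild type hearts was 0.57 (limma adjusted p = 0.10), beside 0.58 (0.045) with it.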

How the results depend on the processing

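Bgn, Fmod, Aspn and Prelp were called between transgenic vehicle and wild type hearts under all 14 alternatives and in all 9 fits without 1 heart. Fmod entered these fits only through its level in transgenic hearts, except in the fit with no filter on low values. Of the values of single genes under alternatives, 644 kept direction and side of the threshold, 36 lost a call, 3 gained one and 12 turned sign. Some have no direction to keep. Dcn for JIB-04 against vehicle (23 values), at 0.00, took either sign (-0.24 to 0.24), and Prelp was at 0.00 in the difference between the days (2 values). The day 158 hearts alone (2 residual degrees of freedom) gave 1217 called genes and 4 of the 8 against wild type, and 651 and 3 for JIB-04 against wild type. Lum against wild type turned to -0.09 there, and to -0.03 or -0.08 without transgenic vehicle heart 1 or 2 (range over left-out hearts -0.08 to 0.71). Called genes between JIB-04 and transgenic vehicle, 1 in all, were 0 with a pseudocount of 0.1, a filter of 5 FPKM or day 158 hearts alone, 6 with no filter and 2 without the variance trend; the cause was not tested. Between the days, 51 became 23 with no filter and 185 with totals without mitochondrial and the 20 highest genes.

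Leaving out 1 heart gave 3348 to 5008 called genes and 5 to 8 of the 8 for transgenic vehicle against wild type, 0 to 3 and 0 for JIB-04 against vehicle, 1720 to 5322 and 5 to 8 for JIB-04 against wild type, and 9 to 287 and 0 between the days. Ogn with JIB-04 against vehicle turned to -0.04 without transgenic vehicle heart 3 (range -0.04 to 0.38). Between the days, Bgn turned to -0.05 with equal totals or without transgenic vehicle heart 2 and to -0.03 without either JIB-04 heart (range -0.05 to 0.12), Lum to 0.01 and 0.04 without transgenic vehicle heart 1 or 3 (range -0.35 to 0.04), and Vcan to -0.05 and -0.01 without transgenic vehicle heart 2 or wild type heart 2.

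With equal totals the share of calls that were higher went from 56.3% to 81.8% (transgenic vehicle against wild type), from 54.0% to 73.3% (JIB-04 against wild type) and from 41.2% to 24.3% (days; 80.5% without mitochondrial and the 20 highest genes, 51.8% with quantile normalization). The median of all genes then moved from 0.05 to 0.24 in the first, where Aspn was at 3.24 and Dcn at 1.16, and from 0.04 to 0.18 in the second. Between hearts of the same replicate number, correlations of deviations ran from -0.19 to 0.43. Hearts of unlike number were not compared, so whether the numbers pair the hearts was not settled. As a block in place of day, replicate numbers gave 4079, 1 and 3416 called genes in the 3 comparisons of groups. Of the 8 genes 7, 0 and 6 were called there, and Ogn lost its call for JIB-04 against wild type (0.62, limma adjusted p = 0.052). Depth in reads is unknown, so no counting error could be given.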

Other observations

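Most called markers of endothelium, mural cells and cardiomyocytes were lower with the transgene. Among all tested genes 15.7% were called lower and 36.0% in either direction. Between transgenic vehicle and wild type hearts, 5 of 8 endothelial markers were lower and 0 higher, for instance Tie1 (-0.95) and Cdh5 (-0.89), with summed levels of 323 to 354 FPKM in wild type and 207 to 294 in transgenic vehicle hearts. Of 8 markers of smooth muscle and pericytes 4 were lower, among them the potassium channel genes Kcnj8 (-1.01) and Abcc9 (-0.81), and 2 were higher, Cspg4 and Cnn1, the latter under 1 FPKM in every wild type heart and tested only through transgenic hearts. Of 8 cardiomyocyte markers 4 were lower and 1 higher, with Myh6 at -1.07 (-0.57 without transgenic vehicle heart 3) and Actn2 at 0.46, and their summed level, 14210 FPKM or more in every heart, was the largest of the 8 marker lists. None of 7 tested macrophage and leukocyte markers and not the 1 tested epicardial and mesothelial marker was called. Without transgenic vehicle heart 3 the lower calls were 7 of 8 endothelial, 4 of 8 mural and 5 of 8 cardiomyocyte markers. The epicardial marker was then called lower too. In that fit 37.4% of all tested genes were called in either direction and 21.0% were called higher. For markers that were lower, fewer cells of a type and less RNA per cell cannot be told apart in whole hearts.

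Of 7 genes on the list of valve, tendon and cartilage 3 were tested. All 3 rose, where 20.3% of all tested genes were called higher. The other 4 were under 1 FPKM in every heart and were not tested. Scx, the tendon transcription factor scleraxis, had a mean of 4.24 ± 0.987 FPKM in wild type (SD, n = 4) and of 31.6 ± 6.57 in transgenic vehicle hearts (SD, n = 3). The means were 1.0 ± 0.447 and 20.6 ± 3.65 for Cilp, a cartilage matrix protein, and 0.633 ± 0.222 and 2.29 ± 0.975 for Sox9, a cartilage transcription factor (limma adjusted p = 2.3e-05 for Scx, 1.4e-06 for Cilp and 0.0086 for Sox9). Sox9 was under 1 FPKM in every wild type heart and was tested only through its level in transgenic hearts, which built a difference into its call. The summed list of 7 genes was at 4.43 to 7.47 FPKM in wild type and 45.4 to 60.0 in all transgenic hearts.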
